A study of Rattus norvegicus with 192 samples.

Results

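Acot1, Acot2, Cyp4a1, Ehhadh, Acaa1a and Pex11a, 6 rat genes that serve as markers of the receptor PPARα, were followed in cultured liver cells. They were found by symbol among 22253 probes, 1 probe standing for each gene, and 5 of the 6 had such a probe; Acaa1a is not analysed here. The libraries came from primary hepatocytes of male rats, isolated from liver and plated on collagen, and expression was read by TempO-Seq. In this targeted assay, paired detector oligonucleotides are ligated on a transcript, amplified and counted. Exposure lasted 24 h in all groups, and the labels give 0.1% DMSO, a common solvent, for treated and control libraries alike. There were 9 libraries of DMSO alone and 9 reference chemicals with 1 library each, at 1.5 to 30 µM (WY-14,643 at 15 µM). A further 29 chemicals had 6 doses each with 1 library per dose. Doses ended at 100 µM in 16 chemicals and at 33.3 µM in the other 13. The controls here are DMSO replicates 2 to 9, 8 libraries over 3 plates. The rats' strain and age, how many animals gave the cells, and whether wells were separate cultures are not given in the sources used here, so p-values measure the spread between libraries, which may be technical.

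PPARα is a nuclear receptor that binds fatty acids and a range of drugs and chemicals, pairs with the retinoid X receptor and switches on genes of fatty acid breakdown in the liver. Rodents answer its agonists with more and larger peroxisomes, which is why such agonists were named peroxisome proliferators. The markers cover successive steps of that response. Cyp4a1 is a cytochrome P450 that hydroxylates the far end of fatty acids (omega oxidation), Ehhadh carries out the middle steps of peroxisomal β-oxidation and Acaa1a its last step. Acot1 in the cytosol and Acot2 in mitochondria split acyl-CoA into free fatty acid and coenzyme A, and Pex11a is a membrane protein that takes part in the division of peroxisomes.

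Promoter windows of 5 of the 6 genes were found in RefSeq (rat build GRCr8), Cyp4a1 having none in that table. Those of the pair of thioesterases and of Ehhadh are shown because all 3 genes rose with PFOA, S-Bioallethrin and WY-14,643, each from 250 bases before to 50 bases after the annotated start. Acot1 (chr6:109367024-109367323, plus strand) and Acot2 (chr6:109342590-109342889, plus strand) are neighbours among protein-coding genes, and Ehhadh lies at chr11:92746159-92746458 on the plus strand. Capitals mark CCAAT or its reverse complement.
Acot1: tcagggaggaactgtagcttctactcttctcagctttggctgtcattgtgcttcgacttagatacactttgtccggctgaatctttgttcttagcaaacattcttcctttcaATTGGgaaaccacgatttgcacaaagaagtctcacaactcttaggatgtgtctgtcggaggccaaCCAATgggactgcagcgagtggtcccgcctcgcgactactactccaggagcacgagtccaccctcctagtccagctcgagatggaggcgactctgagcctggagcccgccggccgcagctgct
Acot2: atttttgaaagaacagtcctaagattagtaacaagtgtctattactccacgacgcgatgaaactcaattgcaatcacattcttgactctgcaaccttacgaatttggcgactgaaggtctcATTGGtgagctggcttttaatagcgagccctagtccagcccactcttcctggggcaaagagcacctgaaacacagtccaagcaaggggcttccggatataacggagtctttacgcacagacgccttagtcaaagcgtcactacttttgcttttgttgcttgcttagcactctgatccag
Ehhadh: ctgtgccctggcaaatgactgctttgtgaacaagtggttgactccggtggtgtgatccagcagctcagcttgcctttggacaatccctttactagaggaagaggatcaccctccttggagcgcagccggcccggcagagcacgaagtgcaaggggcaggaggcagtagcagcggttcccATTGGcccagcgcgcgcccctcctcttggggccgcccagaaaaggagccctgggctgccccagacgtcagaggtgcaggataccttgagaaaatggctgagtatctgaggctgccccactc
CCAAT was present in all 3 of these windows and in that of Acaa1a but not in that of Pex11a, 4 of the 5 in all, and in 37.5% of 33469 RefSeq promoter windows of the same length. It stood 73 bases before the start of Acot1, and on the other strand at 138 bases before Acot1, 129 before Acot2 and 71 before Ehhadh (first base of the match). The direct repeat to which PPARα binds (DR1, with its inner bases left free) was searched on both strands, with overlaps allowed. It was found in 0.415% of all windows and in none of the 5 windows of these genes. AGGTCA, in 16.2% of all windows, and TATAAA, in 14.2%, had no match in those 5 windows either. No match says only that these letters are not in this stretch.

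Library totals ran between 582071 and 11249014 counts (median 5745085), and the 8 DMSO libraries held 2876741 to 8513985. DMSO replicate 1 stood apart and was left out: its correlation with each of the other DMSO libraries was 0.733 to 0.844, against 0.914 to 0.987 among replicates 2 to 9. PFOA at 100 µM lay farthest out on the first principal component, at 6.61, and among the controls DMSO replicate 5 lay at 2.77; results that rest on PFOA at 100 µM are given with and without it. The 8 hepatocyte markers checked, Alb and Ttr among them, summed to 14464 to 49930 CPM (counts scaled to the library total) in treated libraries and to 28539 to 49607 CPM in DMSO. Sums for treated libraries against DMSO were 31.9 to 150.4 against 50.4 to 81.7 CPM for 7 macrophage genes, 1.72 to 35.1 against 13.2 to 19.0 CPM for 6 endothelial genes, 2.23 to 41.2 against 4.01 to 7.50 CPM for 6 stellate cell genes and 8.86 to 127 against 16.0 to 29.2 CPM for 5 bile duct genes. Single genes weighed heavily in these sums: Ttr alone had 13083 to 33882 CPM in DMSO. Over all libraries but DMSO replicate 1, the macrophage gene Cd68 reached 122.8 CPM, the stellate gene Col3a1 37.8 and the bile duct gene Epcam 118.5. The sums, here and below, are therefore not read as shares of cells. Col1a1 and Krt7 were at 0 in all 8 DMSO libraries. In such bulk samples, fewer cells of a type and less RNA per cell cannot be told apart.

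All 5 markers rose over the doses of PFOA, a perfluorinated acid, and of S-Bioallethrin, a pyrethroid insecticide. With the synthetic PPARα agonist WY-14,643 all 5 were above every DMSO library, though the change of Pex11a was not called. The thioesterases Acot1 and Acot2 also rose over the doses of the herbicide dithiopyr, and Cyp4a1 fell with the triazole fungicides cyproconazole and triadimefon. Each marker was tested with edgeR's quasi-likelihood test among all 11055 probes that passed a filter on low counts, with p-values adjusted over all of them (Benjamini-Hochberg) and called at 0.05. A dose trend is the slope across the 6 libraries of a chemical with DMSO as dose 0, given here as the log2 change that the fit puts at 33.3 µM, ± SE. Of 145 such tests of a marker with a chemical, 12 (8.28%) were called higher and 3 (2.07%) lower, against 0.95% and 0.713% of tests over all probes and chemicals. The 12 were all 5 markers with PFOA (all probes higher 2.58%), all 5 with S-Bioallethrin (1.44%) and the thioesterases with dithiopyr (6.26%). The 3 lower were Cyp4a1 and Acot1 with cyproconazole (all probes lower 3.1%) and Cyp4a1 with triadimefon (0.398%); the Acot1 call is 0 counts in all 6 libraries against 0 to 4 in DMSO, was lost in 16 alternatives and is not read as a fall. WY-14,643, tested as 1 library against DMSO, had 4 markers called higher (all probes higher 0.461%, and 1.31% over all reference chemicals), and the other 8 reference chemicals had none (8 of their 40 tests had an unadjusted p under 0.05, and 1 call came from DESeq2, Cyp4a1 lower with pregnenolone 16-alpha-carbonitrile). Among those 8 reference libraries, sulforaphane had few counts, with 8 for Acot2 and 0 for Acot1. Its SEs were 3.96 for Ehhadh and 4.93 for Pex11a, so a missing call there says little about these genes. Acot1 passed the filter through treated libraries alone: 13 treated libraries and 0 of 8 DMSO libraries reached it. Its adjusted p-values, and counts of calls that include it, are therefore descriptions and not support.

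**Figure D1:**
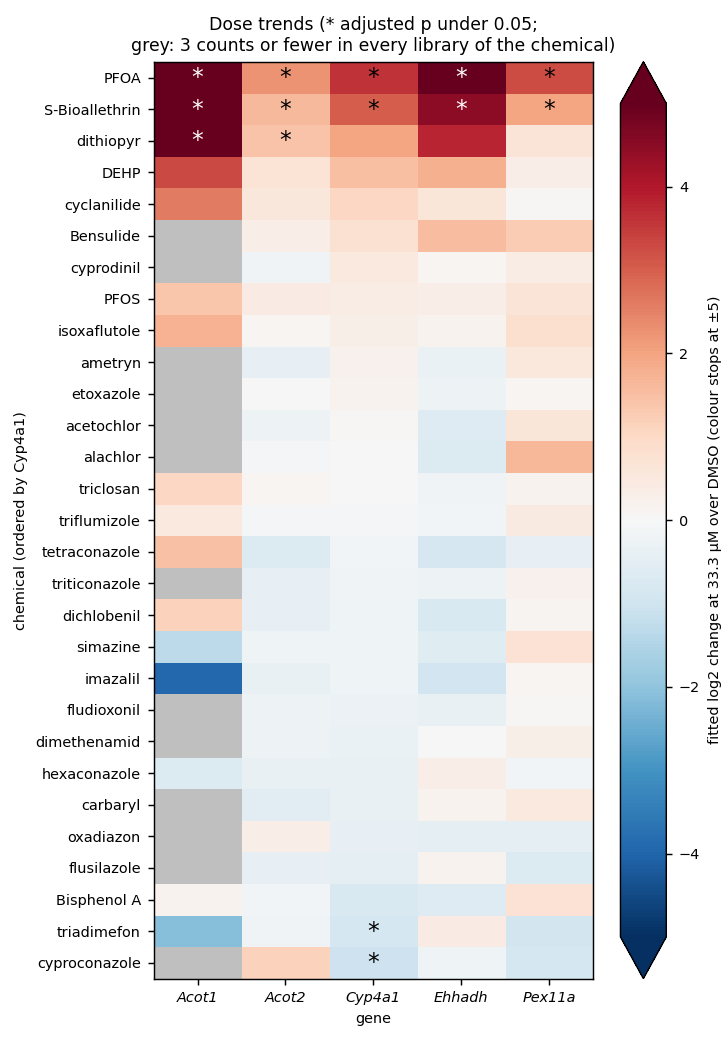
Fitted log2 change at 33.3 µM for the 5 markers (columns) with each of 29 chemicals (rows), relative to DMSO. Stars mark calls at an adjusted p under 0.05, and grey cells mark a gene with 3 counts or fewer in every library of that chemical, where no fold is given (also Acot1 with cyproconazole, called at 0 counts). PFOA and S-Bioallethrin are starred for all 5 genes and dithiopyr for Acot1 and Acot2.

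In the 8 DMSO libraries Cyp4a1 averaged 42.1 ± 7.10 CPM, Acot2 19.6 ± 2.40, Pex11a 3.09 ± 1.21, Ehhadh 2.73 ± 0.734 and Acot1 0.327 ± 0.320 CPM (SD, n = 8). These are levels of separate probes, so each gene is compared with itself across libraries and not with the others. Acot1 was at or near the detection limit in DMSO, with 0 to 4 counts per library, so its fold changes are imprecise. Of 183 treated libraries, Cyp4a1 was above every DMSO library in 18, Ehhadh in 25, Acot1 in 17, Acot2 in 28 and Pex11a in 42. Over all probes tested, 11.7% of treated libraries lay above every DMSO library, so Cyp4a1 (9.84%) and Acot1 (9.29%) were below that background and Pex11a (22.95%) above it. Cyp4a1 was below every DMSO library in 76 treated libraries (41.5%), Acot2 in 63 (34.4%), Ehhadh in 58 (31.7%) and Pex11a in 10 (5.46%), against 11.8% of libraries over all probes. Acot1 could not lie below every DMSO library, because its lowest DMSO level was 0. Levels below all controls were thus more frequent than over all probes for Cyp4a1, Acot2 and Ehhadh, most of them with no called change. In 10 libraries all 5 markers were above every DMSO library: WY-14,643, PFOA and S-Bioallethrin at 11.1, 33.3 and 100 µM, DEHP at 33.3 µM, PFOS at 100 µM and dithiopyr at 3.7 µM.

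**Figure D2:**
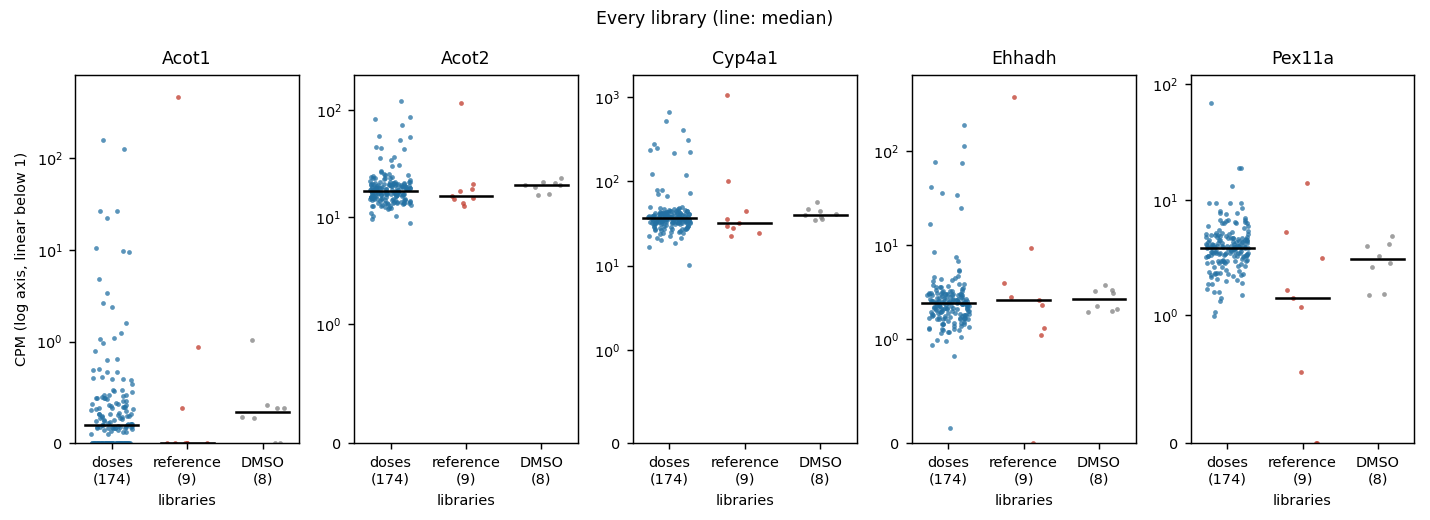
CPM of each marker (log axis, linear below 1 CPM) in the dose libraries, the 9 reference libraries and the 8 DMSO libraries, 1 point per library, with a line at each group's median. Most treated libraries sit near the DMSO points, and the highest ones stand 1 to several orders of magnitude above them for Acot1, Ehhadh and Cyp4a1.

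Cyp4a1, the omega hydroxylase, had 1061 CPM in the WY-14,643 library, against 34.8 to 56.4 CPM with a median of 40.3 in the 8 DMSO libraries (log2 change 4.54 ± 0.24, adjusted p = 1.8e-05, edgeR's quasi-likelihood test). Over PFOA at 0.4, 1.2, 3.7, 11.1, 33.3 and 100 µM it had 35.8, 36.4, 67.6, 218, 662 and 517 CPM, so that libraries from 3.7 µM up lay above all of the DMSO libraries. The PFOA trend was 3.63 ± 0.29 (adjusted p = 3.76e-05), and without the 100 µM library it was 3.97. S-Bioallethrin at the same doses gave 29.4, 34.9, 72.7, 234, 407 and 309 CPM, again above DMSO from 3.7 µM up, with a trend of 3.01 ± 0.31 (adjusted p = 6.84e-05). Both chemicals had their highest Cyp4a1 level at 33.3 µM, not at 100 µM. Dithiopyr at 0.14, 0.4, 1.2, 3.7, 11.1 and 33.3 µM gave 46.4, 49.9, 121, 250.4, 223 and 48.2 CPM. Its middle doses were thus above DMSO, while the top dose lay inside the DMSO range. The dithiopyr trend was not called by edgeR (1.98 ± 0.88, adjusted p = 0.149) or DESeq2 (adjusted p = 0.0762), and without the 33.3 µM library it was 4.17 (adjusted p = 0.00537). In that top-dose library the 8 hepatocyte markers summed to 14464 CPM, the lowest of all treated libraries, against 28539 to 49607 CPM in DMSO; the part of this in the Cyp4a1 level was not tested.

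**Figure D3:**
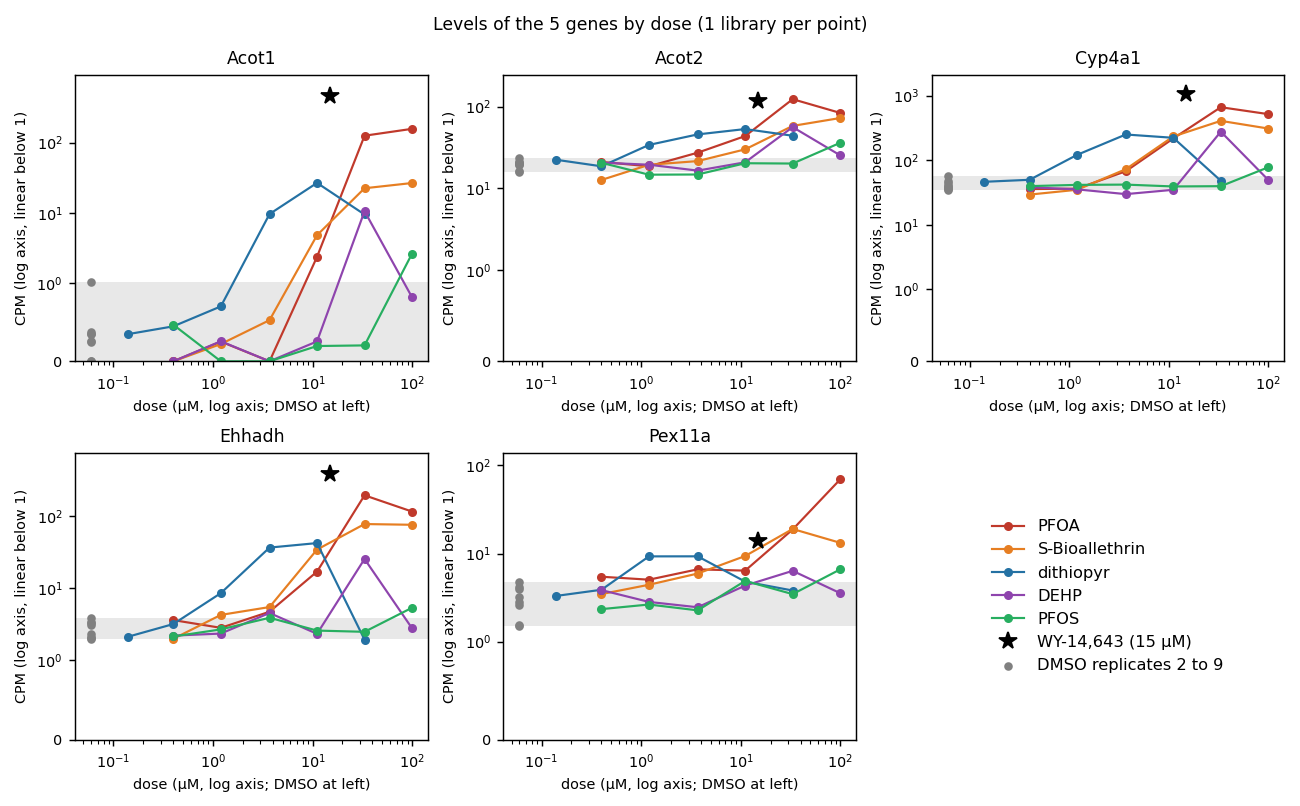
CPM of each marker (log axis, linear below 1 CPM, 1 panel per gene) over dose in µM (log axis) for PFOA, S-Bioallethrin, dithiopyr, DEHP and PFOS, 1 library per point, with DMSO at the left, its range as a grey band and WY-14,643 as a star. PFOA and S-Bioallethrin lie above the DMSO band for all 5 genes from 11.1 µM up. At 33.3 µM dithiopyr falls back into the band for Cyp4a1 and to just below it for Ehhadh. DEHP lies above the band for all 5 genes at 33.3 µM alone.

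Ehhadh, the peroxisomal β-oxidation enzyme, followed the same chemicals from a lower base. It had 377 CPM with WY-14,643, against 1.96 to 3.82 CPM with a median of 2.66 in DMSO (log2 change 6.88 ± 0.31, adjusted p = 9.1e-06, edgeR's quasi-likelihood test). PFOA gave 3.56, 2.78, 4.65, 16.8, 194 and 115 CPM from the lowest dose to the highest, with a trend of 5.35 ± 0.50 (adjusted p = 0.000108) and of 6.10 without 100 µM. S-Bioallethrin gave 1.96, 4.20, 5.40, 34.1, 77.1 and 75.3 CPM, with a trend of 4.48 ± 0.38 (adjusted p = 1.63e-05). For both, libraries at 11.1 µM and above stood well clear of DMSO and the level at 100 µM was no higher than at 33.3 µM. Dithiopyr gave 2.09, 3.13, 8.44, 36.3, 41.9 and 1.90 CPM, so Ehhadh at the top dose was just below the lowest DMSO library, as Cyp4a1 was inside its DMSO range. This trend was not called by edgeR (3.80 ± 1.30, adjusted p = 0.064) and was called by DESeq2 (4.32, adjusted p = 0.00586); without 33.3 µM it was 6.62 by edgeR (adjusted p = 0.000435).

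Acot1 and Acot2 encode thioesterases of the cytosol and of mitochondria, are close in sequence and lie next to each other, and whether a probe could take up signal from the partner gene was not tested. Acot1 had 467 CPM with WY-14,643, against 0 to 1.03 CPM with a median of 0.304 in DMSO (log2 change 9.57 ± 0.45, adjusted p = 9.1e-06, edgeR's quasi-likelihood test). PFOA gave 0, 0.252, 0, 2.38, 126 and 157 CPM of Acot1 from the lowest dose to the highest, and S-Bioallethrin 0, 0.221, 0.527, 4.83, 22.5 and 26.7 CPM. Acot1 thus stayed within the DMSO range up to 3.7 µM and was above it from 11.1 µM with both. Trends were 8.85 ± 0.90 with PFOA (adjusted p = 0.000191, and 11.16 without 100 µM) and 5.83 ± 0.60 with S-Bioallethrin (adjusted p = 6.84e-05). Dithiopyr gave 0.348, 0.448, 0.703, 9.65, 26.8 and 9.51 CPM over its doses, with a trend of 6.61 ± 1.13 (adjusted p = 0.00199). Acot1 therefore stayed above DMSO at the top dithiopyr dose, where Cyp4a1 and Ehhadh did not. In 13 of 29 chemicals Acot1 had 3 counts or fewer in every library, so no fold is given for them. Its p-values are descriptions, because it passed the filter on low counts through treated libraries alone.

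Acot2 moved by smaller factors from a higher base. It had 116 CPM with WY-14,643, against 16.1 to 23.3 CPM with a median of 19.9 in DMSO (log2 change 2.45 ± 0.25, adjusted p = 0.000939, edgeR's quasi-likelihood test); with DMSO of the same plate alone the adjusted p was 0.0997. PFOA gave 21.1, 18.7, 27.4, 43.7, 123 and 83.7 CPM (trend 2.24 ± 0.23, adjusted p = 0.000191, and 2.49 without 100 µM). S-Bioallethrin gave 12.7, 19.5, 21.6, 30.1, 58.1 and 72.6 CPM (trend 1.63 ± 0.19, adjusted p = 0.000272). Acot2 was above all DMSO libraries from 3.7 µM of PFOA and from 11.1 µM of S-Bioallethrin. Dithiopyr gave 22.4, 18.7, 34.0, 45.8, 53.2 and 44.1 CPM, above DMSO from 1.2 µM (trend 1.42 ± 0.32, adjusted p = 0.00907), and here too the top dose stayed high.

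Pex11a, the peroxisome division protein, had its highest level with PFOA and not with WY-14,643, as did Acot2. The WY-14,643 library had 13.9 CPM, against 1.50 to 4.82 CPM with a median of 3.04 in DMSO, above every DMSO library but not called (1.94 ± 0.53, adjusted p = 0.274, edgeR's quasi-likelihood test). PFOA gave 5.45, 5.05, 6.62, 6.40, 18.8 and 69.4 CPM, all 6 above DMSO, with a trend of 3.26 ± 0.38 (adjusted p = 0.000355). Unlike the other markers except Acot1, Pex11a was highest at 100 µM of PFOA, the library that lay farthest out on the first principal component, and without that library the trend was 2.15 (adjusted p = 0.0226). S-Bioallethrin gave 3.47, 4.42, 5.93, 9.38, 19.0 and 13.2 CPM (trend 1.98 ± 0.33, adjusted p = 0.0038), above DMSO from 3.7 µM. Dithiopyr gave 3.30, 3.88, 9.28, 9.29, 4.80 and 3.80 CPM, with levels above DMSO at 1.2 and 3.7 µM alone and no called trend (0.65 ± 0.80, adjusted p = 0.632). Pex11a had 9 to 41 counts in the 8 DMSO libraries, and 22.95% of treated libraries lay above all 8, against 11.7% over all probes. These libraries came from 25 chemicals or reference chemicals, a number for which no share over all probes was computed. Among those without a call by edgeR, fludioxonil at 1.2 µM had 9.46 CPM, ametryn at 3.7 µM 8.44 CPM and alachlor at 33.3 µM 7.63 CPM, and the alachlor trend of 1.68 (adjusted p = 0.0916) was called by DESeq2 (adjusted p = 0.0427).

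With DEHP, a phthalate plasticizer, all 5 markers stood above the DMSO libraries at 1 dose. At 0.4, 1.2, 3.7, 11.1, 33.3 and 100 µM of DEHP, Cyp4a1 had 38.2, 35.4, 29.9, 34.9, 277 and 49.4 CPM, Ehhadh had 2.16, 2.31, 4.47, 2.29, 25.2 and 2.73 CPM, and Acot1 had 0, 0.257, 0, 0.255, 10.6 and 0.819 CPM. At 33.3 µM Acot2 was at 56.2 CPM and Pex11a at 6.36 CPM, and at 100 µM they were at 25.4 and 3.55 CPM. The dose at which all 5 stood high was 33.3 µM, and at 100 µM they were in or near the DMSO range. No trend of the 5 was called by edgeR's quasi-likelihood test or by DESeq2, though 4 had an unadjusted p under 0.05, and 1 probe of 11055 (0.00905%) was called higher over DEHP doses. The Cyp4a1 trend was 1.50 (adjusted p = 0.305), and without the 33.3 µM library it was 0.03. With 1 library per dose, a response to the dose and a property of that well cannot be told apart. The hepatocyte markers of the 33.3 µM library summed to 32080 CPM, inside the DMSO range of 28539 to 49607 CPM.

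Tested 1 library at a time against DMSO, 30 of 870 tests of a marker in a dose library were called higher and 3 lower, against 0.336% higher and 0.584% lower over all probes and libraries. These tests assume that a lone library varies as the DMSO libraries do. With PFOA, Cyp4a1 was called at 11.1 µM (log2 change 2.36 ± 0.25, adjusted p = 0.0302, edgeR's quasi-likelihood test), 1 of 2 probes called higher there (0.0181%). At 33.3 µM of PFOA 4 markers were called (all probes higher 0.959%), with Acot1 at 7.83, Ehhadh at 6.06, Cyp4a1 at 4.01 and Acot2 at 2.68, while Pex11a at 2.52 missed the threshold (adjusted p = 0.0571). All 5 were called at 100 µM, where 16.8% of all probes were also called higher and the hepatocyte markers summed to 45421 CPM. S-Bioallethrin had Cyp4a1 and Ehhadh called at 11.1 µM (all probes 0.217%), all 5 at 33.3 µM (0.868%) and all but Pex11a at 100 µM (0.697%). Dithiopyr had Cyp4a1 and Ehhadh called at 3.7 µM (0.0633%), Acot1, Cyp4a1 and Ehhadh at 11.1 µM (0.118%), and Acot1 and Acot2 at 33.3 µM (3.01%). With DEHP at 33.3 µM, Cyp4a1 was the 1 probe of 11055 called higher (2.62 ± 0.25, adjusted p = 0.0133); Ehhadh changed by 2.98 ± 0.40 (adjusted p = 0.125) and Acot1 by 4.13 ± 0.75 (adjusted p = 0.378). The PFOS library at 100 µM had no marker called, with adjusted p of 0.69 to 0.909 (all probes higher 0%), and its Acot2 and Cyp4a1 had an unadjusted p under 0.05. With DMSO replicate 1 added to the controls, 11 of the 33 calls were left.

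**Figure D4:**
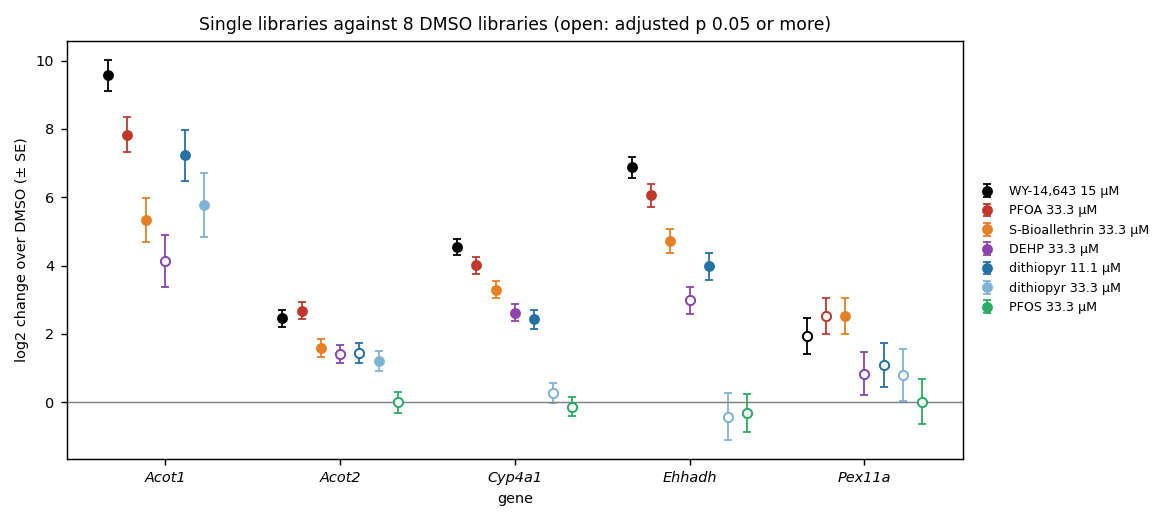
Log2 change ± SE of each marker in single libraries against the 8 DMSO libraries, for WY-14,643 (15 µM), PFOA, S-Bioallethrin and DEHP (33.3 µM), dithiopyr (11.1 and 33.3 µM) and PFOS (33.3 µM). Filled points were called at an adjusted p under 0.05, open points were not, and genes with 3 counts or fewer in the library are left out. At 33.3 µM, dithiopyr keeps Acot1 and Acot2 high with Cyp4a1 and Ehhadh near 0, and PFOS lies near 0 with no call.

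Differences between chemicals were tested at shared doses for 6 pairs, as the difference of their dose slopes. PFOA and PFOS are both perfluorinated acids, PFOA with a carboxylic acid and PFOS with a sulfonic acid group. Over the PFOS doses Cyp4a1 had 39.8, 41.6, 42.0, 39.3, 39.7 and 78.0 CPM, Ehhadh 2.11, 2.64, 3.83, 2.54, 2.44 and 5.29 CPM, and Acot2 20.6, 14.7, 14.8, 20.3, 20.2 and 36.1 CPM. Up to 33.3 µM these lay at about the DMSO levels, and at 100 µM all 5 markers were above every DMSO library, with Pex11a at 6.61 CPM and Acot1 at 2.64 CPM (6 counts). No PFOS trend was called by edgeR (all probes higher 0.0814%) or, for the 1 marker to which it gave an adjusted p, by DESeq2; none had an unadjusted p under 0.05, and log2 changes were 0.32 to 1.38 with adjusted p of 0.754 to 0.924. All 5 differences, PFOA minus PFOS, were called (all probes higher 2.46%): Acot1 6.32 (95% interval 4.45 to 8.20), Acot2 1.86 (1.33 to 2.40), Cyp4a1 3.10 (2.45 to 3.75), Ehhadh 4.74 (3.63 to 5.85) and Pex11a 2.74 (1.85 to 3.63). Without 100 µM all 5 stayed called, with differences of 2.23 for Pex11a to 8.47 for Acot1. All 5 were also called for PFOA minus DEHP (all probes higher 3.55%): Acot1 4.20 (adjusted p = 0.0113), Acot2 1.47 (0.00666), Cyp4a1 2.08 (0.0239), Ehhadh 3.32 (0.00595) and Pex11a 2.80 (0.000699), by edgeR's quasi-likelihood test. The DEHP pair was less firm: without 100 µM Acot2 was at 1.34 (adjusted p = 0.0613), Cyp4a1 at 1.81 (0.119) and Pex11a at 1.72 (0.0748), without 11.1 µM Cyp4a1 was at 1.88 (0.0588), and DESeq2 gave Acot1 an adjusted p of 0.0752. PFOA minus S-Bioallethrin had no marker called by edgeR or DESeq2, although 3 had an unadjusted p under 0.05. Over all probes edgeR called 0% higher and DESeq2 called 68 in either direction, while the unadjusted p of edgeR was under 0.05 for 1375. Its intervals were 0.64 to 3.50 for Acot1, 0.24 to 1.26 for Acot2, −0.20 to 1.31 for Cyp4a1, −0.30 to 1.73 for Ehhadh and 0.30 to 1.90 for Pex11a, so differences of a few fold are within them. These differences share the PFOA libraries and the DMSO libraries.

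For the chloroacetamide herbicides, the difference acetochlor minus alachlor had no marker called by edgeR or DESeq2 and none at an unadjusted p under 0.05 (all probes higher 0%), with Cyp4a1 at 0.03 (−0.42 to 0.47) and Pex11a at −0.66 (−1.82 to 0.50). For the triazine herbicides, ametryn minus simazine had none called by edgeR, none of the 2 with an adjusted p from DESeq2, and none at an unadjusted p under 0.05 (all probes lower 0.00905%). Cyp4a1 was at 0.24 (−0.25 to 0.73) and Ehhadh at 0.20 (−0.92 to 1.32). Simazine was on plate 2 at 0.4 to 3.7 µM and on plate 1, as all of ametryn was, from 11.1 µM up. Its dose is thus partly confounded with plate, a factor in the fit. A missed threshold does not show that the members of a pair act alike, and the intervals bound the differences. Among the triazole fungicides, cyproconazole minus triticonazole was called lower for Cyp4a1, at −0.97 (−1.39 to −0.55, adjusted p = 0.0114, edgeR's quasi-likelihood test), where 3.93% of all probes were lower. Over the same doses Cyp4a1 had 30.1, 28.2, 22.7, 19.9, 21.5 and 16.4 CPM with cyproconazole and 34.7, 34.5, 40.3, 44.7, 33.6 and 38.7 CPM with triticonazole. All 6 cyproconazole libraries were below the lowest DMSO library, at 34.8 CPM, and 3 of the triticonazole libraries were too. This was not particular to cyproconazole: all 6 tetraconazole libraries were also below it, with a Cyp4a1 trend of −0.13 that was not called. Without 11.1 µM the difference cyproconazole minus triticonazole was −0.85 (adjusted p = 0.0604), and with DMSO replicate 1 added its adjusted p was 0.062. The other 4 markers were not called in that pair.

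Cyp4a1 fell over the doses of cyproconazole (−1.03 ± 0.22, adjusted p = 0.0129, edgeR's quasi-likelihood test) and of triadimefon (−0.87 ± 0.17, adjusted p = 0.0183). With triadimefon it had 33.6, 42.1, 32.0, 24.4, 26.7 and 18.6 CPM, below the DMSO range at all doses but 1.2 µM. Flusilazole, carbaryl, dimethenamid and simazine also had 5 libraries each below that range, with no called Cyp4a1 trend. Both calls are narrow: with DMSO replicate 1 added, the adjusted p was 0.0804 for cyproconazole and 0.43 for triadimefon, and without the 100 µM library it was 0.0746 and 0.288. At 100 µM the hepatocyte markers summed to 17185 CPM with cyproconazole and 17184 CPM with triadimefon, against 28539 to 49607 CPM in DMSO, and the part of this in the falls was not tested. The cyproconazole library at 100 µM also had the highest sum of endothelial genes among treated libraries, 35.1 CPM against 13.2 to 19.0 CPM in DMSO, and had few counts, 1340300. In that library Acot2 went the other way: it had 15.8, 10.9, 12.9, 8.83, 13.7 and 87.3 CPM over the doses, with a single-library change of 2.12 ± 0.27 at 100 µM (adjusted p = 0.000497), where 12.7% of all probes were higher and 17.2% lower. Acot1 was listed with 0 counts in all 6 cyproconazole libraries, against 0 to 4 in DMSO, and its lower call (adjusted p = 0.0489) carries no fold. Cyp4a1 was also called lower with Bisphenol A at 11.1 µM, at 10.1 CPM (−2.02 ± 0.35, adjusted p = 0.00377, all probes lower 10.1%), yet it had 33.2 CPM at 33.3 µM. Ehhadh was called lower with imazalil at 33.3 µM, at 0.151 CPM (−3.71 ± 0.95, adjusted p = 0.0169, all probes lower 15.9%), in a library whose hepatocyte markers summed to 14845 CPM and whose macrophage genes summed to 150.4 CPM.

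A few other chemicals had markers above all DMSO libraries without a called change. The plant growth regulator cyclanilide at 100 µM had 120.5 CPM of Cyp4a1, 6.75 CPM of Ehhadh and 3.38 CPM of Acot1, against highest DMSO values of 56.4, 3.82 and 1.03 CPM, while its 5 trends were not called. The herbicide Bensulide at 33.3 µM had 71.5 CPM of Cyp4a1 and 7.49 CPM of Ehhadh, with an Ehhadh trend of 1.56 (adjusted p = 0.192, edgeR's quasi-likelihood test). Among the reference chemicals, 17beta-estradiol had 102 CPM of Cyp4a1 (1.18 ± 0.26, adjusted p = 0.411) and 9.3 CPM of Ehhadh (1.81 ± 0.42, adjusted p = 0.453). These levels were above every DMSO library but did not pass the test.

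Lists of 23 genes of peroxisomal β-oxidation, 11 of omega oxidation, 16 of peroxisome assembly, 12 of PPAR receptors and cofactors and 20 other PPARα targets, of which 18, 6, 12, 11 and 17 were tested, were read beside the markers. They are described by counts and medians, with no test of a list. With PFOA 7 of 18 β-oxidation genes rose and 0 fell, with a median change of 0.69 against −0.04 over all probes. Of the other targets 9 of 17 rose (median 1.01), and 2.58% of all probes were called higher. The thioesterase Acot3 rose by 2.36, Pdk4, which holds back glucose oxidation, by 3.53 and the lipid droplet protein Plin2 by 1.05 (adjusted p of 0.000202 to 0.00103, edgeR's quasi-likelihood test). In omega oxidation 2 of 6, in assembly 1 of 12 and among receptors and cofactors 1 of 11 rose with PFOA. S-Bioallethrin had 8, 2, 1, 0 and 8 genes higher in the same order of lists and 0 lower (all probes higher 1.44%). Ech1 was at 1.55, Crat at 1.92 and the omega hydroxylase Cyp4a2 at 2.69. WY-14,643 had 7, 1, 0, 1 and 8 higher and 0 lower, with Ech1 at 2.74, Pdk4 at 4.57 and the fatty acid transporter Cd36 also higher (adjusted p = 1.8e-05). Without the highest dose, 24 list genes and 134 of all 11055 probes were higher with PFOA, against 20 list genes with all doses. With S-Bioallethrin 15 list genes and 140 probes were higher, against 19 list genes with all doses.

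Dithiopyr had list genes called in both directions, 5 of 64 higher and 8 lower. It had Pdk4 (3.19), Cpt1a, the entry enzyme of mitochondrial β-oxidation (1.71), and Hadhb (0.67) higher, 1 of 18 β-oxidation genes and 4 of 17 other targets being higher in all, against 6.26% of all probes. Against 6.74% of all probes, lower were 3 of 18 β-oxidation, 1 of 6 omega oxidation, 1 of 12 assembly and 3 of 11 receptor and cofactor genes, with Cyp4f4 at −2.08, Pecr at −1.85, Nr1i2 at −1.35 and Rxra, the partner of PPARα, at −0.89. Ppara itself, named here after its values were seen, changed by −2.08 ± 0.58 with dithiopyr (adjusted p = 0.0286, edgeR's quasi-likelihood test), against 0.53 with PFOA (adjusted p = 0.405), 0.48 with S-Bioallethrin (adjusted p = 0.417) and −0.41 with WY-14,643 (adjusted p = 0.665). Without the 33.3 µM dithiopyr library, whose hepatocyte marker sum was the lowest, 8 list genes were higher and 0 lower. Over all 11055 probes 29 were then higher and 34 lower. With cyproconazole 6 of 18 β-oxidation genes, 2 of 6 omega oxidation genes and 1 of 12 assembly genes were lower. So were 10 of 17 other targets, against 3.1% of all probes. Ech1 (−1.53), Cd36 (−3.56) and Plin2 (−1.17) were among the lower genes. Hadhb (0.58) was the 1 list gene higher, where 5.83% of all probes were higher. Triadimefon had 7 of 64 list genes lower (all probes 0.398%), with Plin2 at −0.89, Ech1 at −1.08, Cpt1a at −1.31 and Cd36 at −1.41. Without 100 µM, 6 list genes were lower and 1 higher with cyproconazole, where 51 of 11055 probes were lower and 28 higher. With triadimefon 2 list genes were lower and 2 higher, where 4 probes were lower and 57 higher. DEHP and PFOS had no list gene called, with list medians between −0.27 and 0.11.

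Over all libraries except DMSO replicate 1 the markers varied together to different degrees. Pearson's r of log2 CPM between pairs of markers was between 0.459 for Acot2 with Pex11a and 0.868 for Acot1 with Cyp4a1. The probes of other genes most like Cyp4a1 were Cyp4a2 (r = 0.886), the glycerol kinase Gk (0.862) and the retinol saturase Retsat (0.854). Among those most like Ehhadh were Gk (0.826) and Acaa2 (0.796), for Acot1 Gk (0.848) and Cyp4a2 (0.801), and for Acot2 Pdk4 (0.724) and Gk (0.716). The Cyp4a2 probe of these correlations is not the one read in the gene lists. The list probe had the higher mean count and was not among the probes most like Cyp4a1 or Acot1. Pex11a had another set, the mitochondrial β-oxidation genes Hadha (0.744) and Hadh (0.742) and the lipid droplet gene Hilpda (0.738). These are descriptions: the libraries share plates, depth and controls, and Spearman's rho was lower, at 0.692 for Cyp4a1 with Cyp4a2, 0.425 for Acot2 with Pdk4, 0.359 for Ehhadh with Acaa2 and 0.256 for Ehhadh with Gk. Between markers rho was 0.225 for Acot1 with Pex11a to 0.583 for Acot2 with Cyp4a1, and 0.306 for Acot1 with Ehhadh. Cyp4a1 and Cyp4a2 are close in sequence, so shared probe signal between them is uncertain.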

How the data were processed

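Total RNA was measured by TempO-Seq. The deposited table holds raw counts per probe and library from the authors; reads were mapped with Bowtie, per the submitters' processing notes, and its version, the genome build and the probe sequences are not given in the sources used here. Groups, doses and plates follow the labels, with doses as printed for each library; every sample column was matched to a label. CPM were computed from the counts over all probes. Probes that reached 1.741 CPM, which is 10 counts in a library of median size, in 6 libraries or more entered edgeR 4.0.16 (quasi-likelihood test, TMM, limma 3.58.1, R 4.3.3) with plate as a factor, each fit holding the libraries compared and DMSO replicates 2 to 9. Trends used log2(1 + dose in µM). P-values were adjusted by Benjamini-Hochberg over 11055 probes in each fit. Simulated data held 11055 probes and no plate differences, with 200 changed probes drawn from those averaging at least 10 counts in DMSO, so not Acot1. Simulated treated libraries had the spread of DMSO, and trend effects followed log2(1 + dose) exactly. The shares recovered and false describe that simpler setting and not the real libraries. For the PFOA trend 83.5% of probes changed by 1.5 and 98% of those changed by 3 (log2) were recovered. For PFOA at 33.3 µM alone 88% of those changed by 3 were recovered. In the same order 6.18%, 4.85% and 4.86% of calls were false. Alternatives were DMSO replicate 1 added, DESeq2 1.42.0, its size factors, no filter, no plate term, DMSO of the same plate, a principal component as covariate, doses by rank, another prior count and each DMSO library or dose left out; list counts without the highest dose were added after seeing the data. The markers and gene lists were chosen with earlier results of these data known. Named genes are the markers, of each list comparison up to 4 called genes with the smallest adjusted p and up to 4 in the opposite direction, and the 3 probes of other genes with the highest r to a marker. Some genes that this rule names are not reported here. Counts are not independent molecules, and the errors given measure spread between libraries.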

Additional observations from a re-analysis of the deposited data

Results flagged for a closer look

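DMSO replicate 6 had 1.03 CPM of Acot1, and the gap to the next DMSO library, relative to the range of the 8, was 0.634, above the limit of 0.526; it rests on 4 counts, and about 1 group in 20 would be marked this way by chance. The other values marked are differences between dose slopes that passed the test. PFOA minus PFOS differed by 6.32 for Acot1, 1.86 for Acot2, 3.10 for Cyp4a1, 4.74 for Ehhadh and 2.74 for Pex11a on the log2 scale at 33.3 µM. PFOA minus DEHP differed by 4.20 for Acot1, 1.47 for Acot2, 2.08 for Cyp4a1, 3.32 for Ehhadh and 2.80 for Pex11a. Cyproconazole minus triticonazole differed by −0.97 for Cyp4a1.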

How the results depend on the processing

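Of 1065 recomputed values of single markers, 1000 kept their direction and their side of the threshold, 52 kept the direction but lost the call, 11 gained one and 2 changed sign. Ehhadh over DEHP doses was −0.087 without 33.3 µM (adjusted p = 0.979, edgeR's quasi-likelihood test), within −0.087 to 2.84 over the doses left out, and Pex11a in PFOA minus S-Bioallethrin was −0.088 without 100 µM (adjusted p = 0.953), within −0.088 to 1.60. Neither was called with all doses. The 15 trend calls became 12 to 17 under the other settings, 14 to 15 without a DMSO library and 14 to 17 without a dose level; with DMSO replicate 1 added, all 3 lower calls were lost. The 4 reference calls became 7 with the first principal component as a covariate and stayed at 4 without any one DMSO library. The 33 single-library calls became 11 with DMSO replicate 1 added, 46 without the filter and 45 without the plate term. The 11 differences called stayed at 11 without any one DMSO library and were 8 to 11 without a dose level. List calls without the highest dose were 7 with cyproconazole, 8 with dithiopyr and 4 with triadimefon, against 20, 13 and 7 with all doses, and 24 with PFOA and 15 with S-Bioallethrin, against 20 and 19. The lower Acot1 call with cyproconazole was lost in 16 of its alternatives. The cause of these changes was not tested. With 1 library per dose, no dose has a replicate, and Acot1 at 3 counts or fewer cannot show a fall. No paired analysis was possible because the groups share no replicate numbers beyond 1, which only names a library.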
